A study of Mus musculus with 45 samples.

Results

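Cxcl1, Cxcl2 and Cxcl3 are 3 mouse genes for CXC chemokines that attract neutrophils. They were taken by gene symbol as 3 of the 23594 gene rows of the deposited table, and all 3 passed the filter on low values that 8937 genes passed. Their transcript levels were read in 27 of the 45 libraries of the series. The libraries were made by low-input RNA sequencing of sorted lung cells from C57BL/6J mice. The cells were alveolar macrophages (AM), which live in the air spaces, interstitial macrophages (IM), which live in the lung tissue, and inflammatory monocytes (iMo), which come from the blood. No cells were exposed to lipopolysaccharide (LPS, a component of the outer membrane of bacteria) at 0h, and the others were taken 2h, 6h or 20h after LPS was given into the peritoneum. AM had 4, 2, 3 and 2 libraries at 0h, 2h, 6h and 20h, and IM and iMo had 2 libraries at each time. The sources used here do not state the age and sex of the mice or the LPS dose. The series text gives a last time of 22h where the library names give 20h, and the library names were followed. The names do not say which libraries came from separate animals, so the p-values measure only the spread between these libraries, which may be technical. The other 18 libraries, from mice given LPS by the nose, were not used, because gene names and values do not match in their columns: Actb, the cytoskeletal actin gene, was at 0.0 to 1.57 TPM there and at 2774 to 11141 TPM in the 27 libraries.

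Chemokines of the ELR+ CXC group, named after a short motif before their first cysteines, bind the receptors CXCR1 and CXCR2 on neutrophils and draw these cells from blood into tissue. In mice Cxcl1 (KC), Cxcl2 (MIP-2) and Cxcl3 are induced by LPS through TLR4 and NF-kB, a family of transcription factors that enters the nucleus when its inhibitors are degraded. Their messages are short-lived, since AU-rich elements in the 3′ untranslated region recruit decay factors such as tristetraprolin.

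The 3 genes lie on the plus strand of chromosome 5 (GRCm38.p6, the mm10 build that the submitters' processing notes name). By RefSeq, Cxcl3 (gene ID 330122) spans 90786101 to 90788093, Cxcl1 (gene ID 14825) spans 90891245 to 90893121, and Cxcl2 (gene ID 20310) spans 90903899 to 90905938, so that the members cover 119.8 kb. Cxcl5, Ppbp and Pf4 lie before Cxcl3, and Cxcl15 lies between Cxcl3 and Cxcl1, in a chemokine cluster of 146.6 kb. The first GENCODE transcript of each member has 4 exons, and 0 other GENCODE genes overlap any of them.

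The promoters are shown because the members moved together in IM and because their starts share one exact stretch. The 100 bases just before the earliest annotated transcription start of each gene follow, 5′ to 3′ on the plus strand, from RefSeq's GRCm38.p6 sequence. The windows are chr5:90891141-90891240 for Cxcl1, chr5:90903771-90903870 for Cxcl2 and chr5:90786001-90786100 for Cxcl3. Capitals mark the longest stretch that all 3 genes share in the 250 bases before the RefSeq start.
Cxcl1: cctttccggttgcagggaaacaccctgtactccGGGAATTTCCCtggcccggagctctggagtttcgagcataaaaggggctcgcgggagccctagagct
Cxcl2: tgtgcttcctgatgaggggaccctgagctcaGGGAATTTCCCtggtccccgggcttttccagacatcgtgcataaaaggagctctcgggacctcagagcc
Cxcl3: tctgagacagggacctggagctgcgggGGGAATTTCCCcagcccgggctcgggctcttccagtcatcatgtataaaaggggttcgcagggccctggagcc
The shared stretch has 11 bases and begins 67, 69 and 75 bases before the GENCODE start of Cxcl1, Cxcl2 and Cxcl3. It contains GGAATTTCC, a form of the sequence that NF-kB dimers bind.

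Windows of 300 bases, from 250 before to 50 after each RefSeq start, were searched on both strands in 32851 promoters. The 11-base stretch was found in 14 of them (0.043%), 3 of which were those of Cxcl1, Cxcl2 and Cxcl3. It was picked because all 3 members share it, so finding it and the GGAATTTCC within it in them was fixed in advance. GGAATTTCC alone, which overlaps that stretch, was in 0.317% of the windows and in all 3 members. ATAAAAGG, a TATA-like sequence, was in 1.76% and began 30, 29 and 31 bases before the GENCODE starts of Cxcl1, Cxcl2 and Cxcl3. TGACTCA, a sequence that AP-1 factors bind, was in 5.20% of the windows and in none of the members' windows. GGGCGGGG, a GC box, was in 17.6% and, of the members, in that of Cxcl2. These are matches of letters, and no binding was measured here.

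At the other end of the messages, the pentamer ATTTA, the core of AU-rich elements, occurred 7 times in the Cxcl1 transcript, 11 times in Cxcl2 and 5 times in Cxcl3, in each case within the 3′ untranslated region. Of coding transcripts within 20% of the same length, 0.17%, 0.01% and 1.28% held at least as many. These shares count each gene's own transcript, which for Cxcl2 makes up the whole share. The Cxcl2 and Cxcl3 transcripts share an identical stretch of 110 bases, and 82 runs of 30 bases (7.59% of those in Cxcl2 and 8.31% of those in Cxcl3) are in both. Cxcl1 shares no run of 30 bases with either, its longest shared stretch being 23 bases. How the authors' counting assigned reads that fit both Cxcl2 and Cxcl3 is not stated, so low Cxcl3 values beside high Cxcl2 values are uncertain.

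The deposited values are in TPM, transcript abundances scaled for gene length and library size that keep no read counts, so the depth behind each value is unknown. The columns summed to 331473 to 551635 TPM, and 4068 to 7298 genes reached 5 TPM. Libraries of one group correlated at 0.936 to 0.981. The library names carry one of 3 codes, written here as code-160623, code-161219 and code-171227, whose meaning is not stated. Every IM and iMo library at 0h has code-171227, and every IM and iMo library after LPS has code-160623 or code-161219. Letters before a code tell libraries of one group apart, as in A161219. LPS and the code therefore cannot be told apart in IM and iMo when a time is set against 0h.

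The sorted populations were checked against marker genes. Siglecf, an alveolar macrophage lectin, was at 43.9 to 228 TPM in the AM libraries and at 8.11 TPM or less in the others. Ly6c2, a marker of classical monocytes, was at 1004 to 4892 TPM in iMo. The sum of 8 classical monocyte markers overlapped between the populations, at 2679 to 13785 TPM in iMo, 2804 to 11509 TPM in AM and 3361 to 7104 TPM in IM. Chil3 is on both that list and the list of alveolar macrophage markers. The IM libraries carried the interstitial macrophage gene C1qa at 1077 and 973 TPM at 0h, at 20.7 and 59.0 TPM at 2h, at 33.9 and 18.1 TPM at 6h, and at 324 and 328 TPM at 20h. They also carried neutrophil transcripts. The sum of 10 neutrophil markers was 11193 to 56846 TPM in IM, 23.8 to 442 TPM in AM and 135 to 3061 TPM in iMo. S100a8 and S100a9, neutrophil calprotectin subunits that monocytes also make, led that sum at 5400 to 28641 TPM and 5159 to 24856 TPM in IM. Ly6g, which is more specific to neutrophils, was at 4.48 to 63.6 TPM in IM, at 0.96 TPM or less in AM and at 5.46 TPM or less in iMo. The values called IM below are therefore those of the libraries labelled IM, and which cells in them made the chemokine messages was not measured.

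Before LPS, mean TPM was highest in IM and lowest in iMo for Cxcl1 and Cxcl2, and highest in AM and lowest in iMo for Cxcl3. Cxcl2 was at 33.2 and 23.4 TPM in the 2 IM libraries and at 1.71 and 0.41 TPM in the 2 iMo libraries. In AM it ranged from 5.33 to 38.0 TPM, with a median of 15.0 TPM over 4 libraries, so AM overlapped IM and lay above iMo. Cxcl3 was at 2.25 and 2.32 TPM in IM and at 0 and 1.31 TPM in iMo. In AM it was at 32.8, 39.4 and 37.5 TPM in the 3 code-171227 libraries and at 2.22 TPM in the code-160623 library. Cxcl1 was low in all: 0.93 to 4.88 TPM in AM, 3.23 and 2.49 TPM in IM, and listed at 0 in both iMo libraries.

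Differences were tested with limma on log2(TPM + 1), with p-values adjusted over all 8937 genes by the Benjamini-Hochberg method and a gene called at an adjusted p under 0.05. A difference on this scale understates the change of low genes. In iMo against AM at 0h, 3 of 3 members were lower, beside 13.4% of all genes that were lower. The log2 differences were -1.66 (SE 0.59, adjusted p 0.0374) for Cxcl1, -3.00 (SE 0.52, 7.87e-05) for Cxcl2 and -3.74 (SE 0.83, 0.00108) for Cxcl3. The Cxcl1 call was lost without either of 2 AM libraries (A171227 or C171227) or either iMo library, with a pseudocount of 5 TPM (-0.55, adjusted p 0.234), with no filter, or with quantile normalization.

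In IM against AM at 0h, 1 of 3 members was lower, beside 11% of all genes. It was Cxcl3, with a log2 difference of -2.63 (SE 0.83, adjusted p 0.0196 by limma). The call was lost without any 1 of the 3 code-171227 AM libraries or either IM library, and with a pseudocount of 0.1 TPM (adjusted p 0.0798 by limma), and within code-171227 alone the difference was -3.51 (adjusted p 6.31e-05). In iMo against IM at 0h, 1 of 3 was lower, beside 6.32% of all genes. It was Cxcl2, at -3.89 (SE 0.61, adjusted p 7.83e-05 by limma), while Cxcl1 was at -1.94 (95% interval -3.36 to -0.52, adjusted p 0.103).

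**Figure D1:**
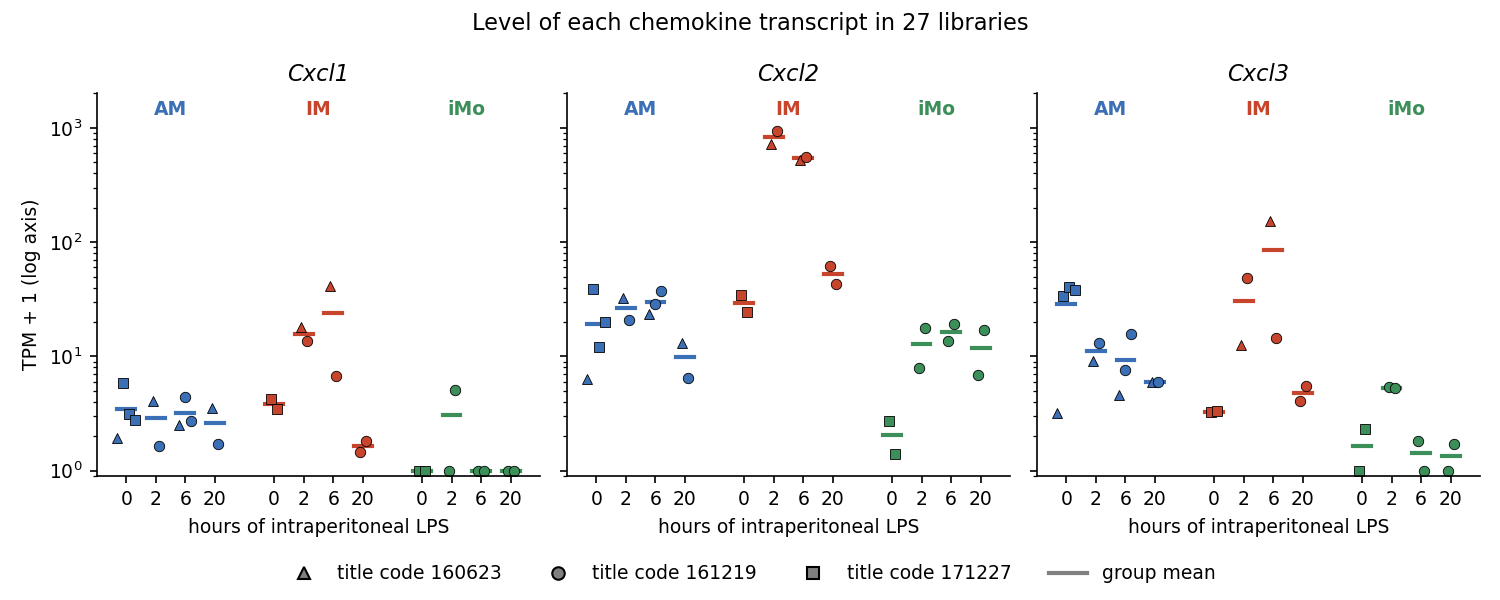
Level of Cxcl1, Cxcl2 and Cxcl3 in each of the 27 libraries, as TPM + 1 on a log axis, by cell type and hours of intraperitoneal LPS. Points are libraries, shaped by the 6-digit code in their names, and bars are group means. The IM libraries at 2h and 6h hold the highest Cxcl2 values, 519 to 941 TPM.

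IM gave the highest level of every member, at 2h or 6h of LPS. Cxcl2 was at 728 and 941 TPM at 2h, at 519 and 559 TPM at 6h, and at 60.4 and 42.0 TPM at 20h. Both libraries at 2h and both at 6h lay far above the 0h pair, and the pair at 20h lay above it by a smaller margin. The group means were 28.3 ± 6.92 TPM (SD, n = 2) at 0h, 835 ± 151 TPM at 2h, 539 ± 28.3 TPM at 6h and 51.2 ± 12.996 TPM at 20h, so that the mean at 2h was 29.5 times that at 0h.

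Cxcl3 in IM was at 11.7 and 47.1 TPM at 2h, at 154 and 13.6 TPM at 6h, and at 3.04 and 4.55 TPM at 20h. All 4 libraries at 2h and 6h were above the 0h pair of 2.25 and 2.32 TPM, but the 2 libraries of each time differed several-fold. Cxcl1 was at 17.1 and 12.6 TPM at 2h, at 39.999 and 5.69 TPM at 6h, and at 0.47 and 0.81 TPM at 20h. Its libraries at 20h were below the 0h pair. In both genes the code-160623 library was the high one at 6h, with 39.999 TPM of Cxcl1 and 154 TPM of Cxcl3, although its Cxcl2 level of 519 TPM was the lower of its pair.

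At 2h against 0h in IM, 3 of 3 members rose, beside 7.99% of all genes that rose. The log2 difference was 4.84 for Cxcl2 (SE 0.61, adjusted p 1.99e-06 by limma), 2.91 for Cxcl3 (SE 0.96, 0.0155) and 2.03 for Cxcl1 (SE 0.69, 0.0178). The median of all genes was -0.79 in this comparison, and relative to it the members were at 5.64, 3.70 and 2.83. Of 4356 genes called there, 714 were higher. With quantile normalization the median was -0.01, 1864 of 3847 called genes were higher, and the differences of Cxcl2, Cxcl3 and Cxcl1 were 4.69, 3.81 and 2.94, all still called. Leaving out any 1 of the 4 libraries kept the Cxcl2 call. The Cxcl1 call was lost without either 0h library or the code-160623 library at 2h, and the Cxcl3 call without either 0h library or the 2h library A161219. With a pseudocount of 0.1 TPM, Cxcl2 alone was called, and with values rescaled without Rn45s (the ribosomal RNA precursor) and Lars2 Cxcl1 had an adjusted p of 0.0533 by limma.

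At 6h against 0h in IM, 3 of 3 members were again higher, beside 4.63% of all genes. Cxcl2 differed by 4.22 on the log2 scale (SE 0.61, adjusted p 2.05e-05 by limma), Cxcl3 by 3.85 (SE 0.96, 0.00518) and Cxcl1 by 2.11 (SE 0.69, 0.0273). The median of all genes was -0.53, with 414 of 2275 called genes higher. With quantile normalization it was 0.02 and 1369 of 2641 were higher, and all 3 members were still called. Without the code-160623 library at 6h, Cxcl1 fell to 0.80 and Cxcl3 to 2.15, and neither was called. Cxcl1 was also not called without either 0h library, with a pseudocount of 0.1 TPM, with no filter, or after rescaling without Rn45s and Lars2. Between 2h and 6h, 0 of 3 members were called, beside 7.21% of all genes in either direction, and 0 of 3 had an unadjusted p under 0.05. A fit that also held the title code gave 3.43 and 3.51 for Cxcl1 and 6.38 and 7.32 for Cxcl3, all called. These are differences from 0h at 2h and 6h. The step in that fit from code-171227 to the codes after LPS rests on the code-160623 AM library at 0h alone. That library had the lowest AM value at 0h for every member, with Cxcl3 at 2.22 TPM. These larger differences therefore depend on that 1 library. The Cxcl2 difference of 6h against 2h was -0.62, with a 95% interval of -1.87 to 0.63.

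By 20h the IM levels had come down. Against 6h, 3 of 3 members fell, beside 1.12% of all genes that fell. The log2 differences were -3.39 for Cxcl2 (SE 0.61, adjusted p 0.00301 by limma), -3.34 for Cxcl1 (SE 0.69, 0.00801) and -3.33 for Cxcl3 (SE 0.96, 0.0465), against a median of all genes of 0.41. These comparisons do not need a 0h library. In the libraries of code-161219 alone, IM at 6h was the library A161219 only, so only the differences are given. There Cxcl2 fell by 3.45, while Cxcl1 was at -2.04 and Cxcl3 at -1.62, against -3.34 and -3.33 in all libraries. Leaving out the 20h library B161219 took the adjusted p of Cxcl2 to 0.0832. The Cxcl1 and Cxcl3 calls were lost without the code-160623 library at 6h or without either 20h library, and that of Cxcl3 also with a pseudocount of 0.1 TPM, with no filter or with IM fitted alone (adjusted p 0.0604 to 0.138). At 20h against 0h, 0 of 3 members were called, beside 12.4% of all genes, and 0 of 3 had an unadjusted p under 0.05. Cxcl2 differed by 0.83 (95% interval -0.42 to 2.08), Cxcl3 by 0.53 and Cxcl1 by -1.24.

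**Figure D2:**
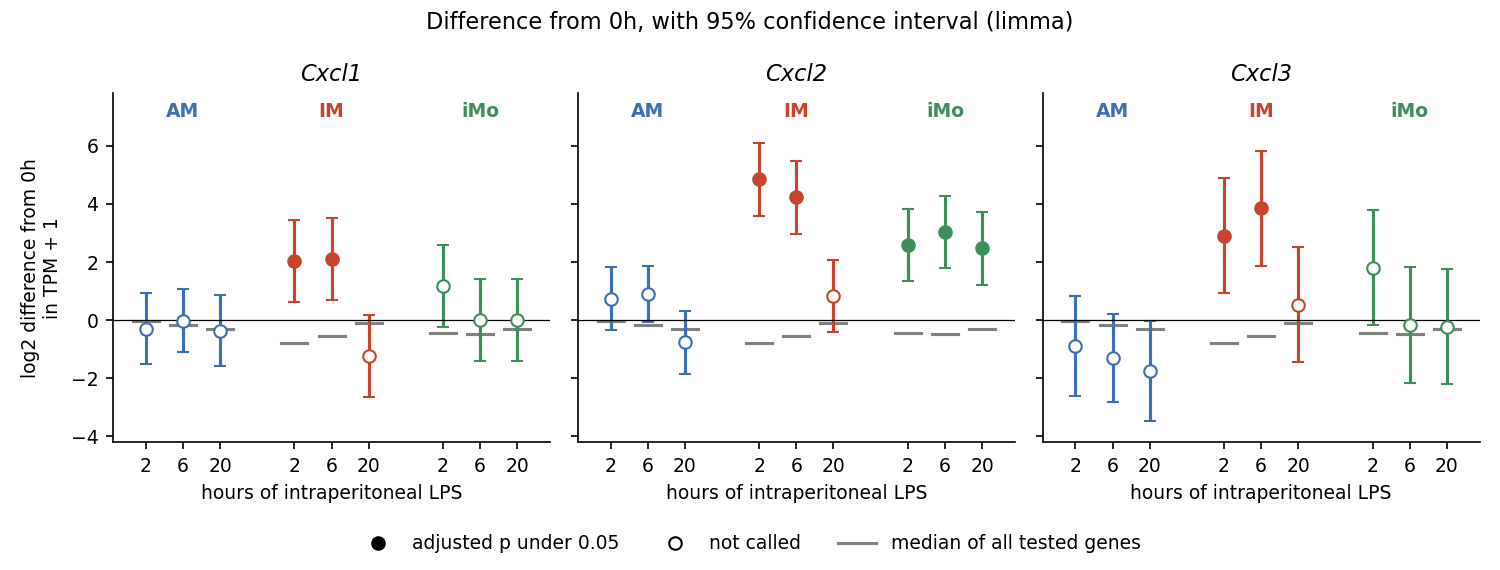
Difference of each member from 0h of the same cell type in log2(TPM + 1), with its 95% confidence interval from limma. Filled points passed an adjusted p of 0.05, open points did not, and grey bars give the median of all 8937 tested genes. In IM all 3 members are filled at 2h and 6h, in iMo only Cxcl2 is filled, and in AM no point is.

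The composition of the IM libraries also moved with time. Of 9 interstitial macrophage markers, 8 were lower at 2h and 8 at 6h than at 0h by limma, beside 40.8% and 20.8% of all genes. Their sum went from 4105 to 4633 TPM at 0h to 122 to 294 TPM at 2h, 289 to 298 TPM at 6h and 2004 to 2115 TPM at 20h. In AM the sum of these markers was 189.28 to 304.45 TPM at 2h and 200.86 to 340.29 TPM at 6h. It therefore did not set IM apart from AM at 2h or 6h. In iMo it was 1738.94 to 1900.87 TPM at 20h, a little below IM. Of 8 endothelial markers, 8 were lower at 2h, beside the same 40.8%. Of 10 neutrophil markers, 5 were higher and 1 was lower at 2h, beside 7.99% and 40.8% of all genes. The neutrophil sum was 11193 and 22509 TPM at 0h, 19753 and 22357 TPM at 2h, 17259 and 56846 TPM at 6h, and 28230 and 34904 TPM at 20h (lower value first), so the 2h pair lay within the range of the 0h pair. At 20h that sum was above its 2h level while Cxcl2 was at 42.0 to 60.4 TPM. In a sorted population, fewer cells of a type and less RNA per cell cannot be told apart, and the part of these shifts in the chemokine values was not tested.

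**Figure D3:**
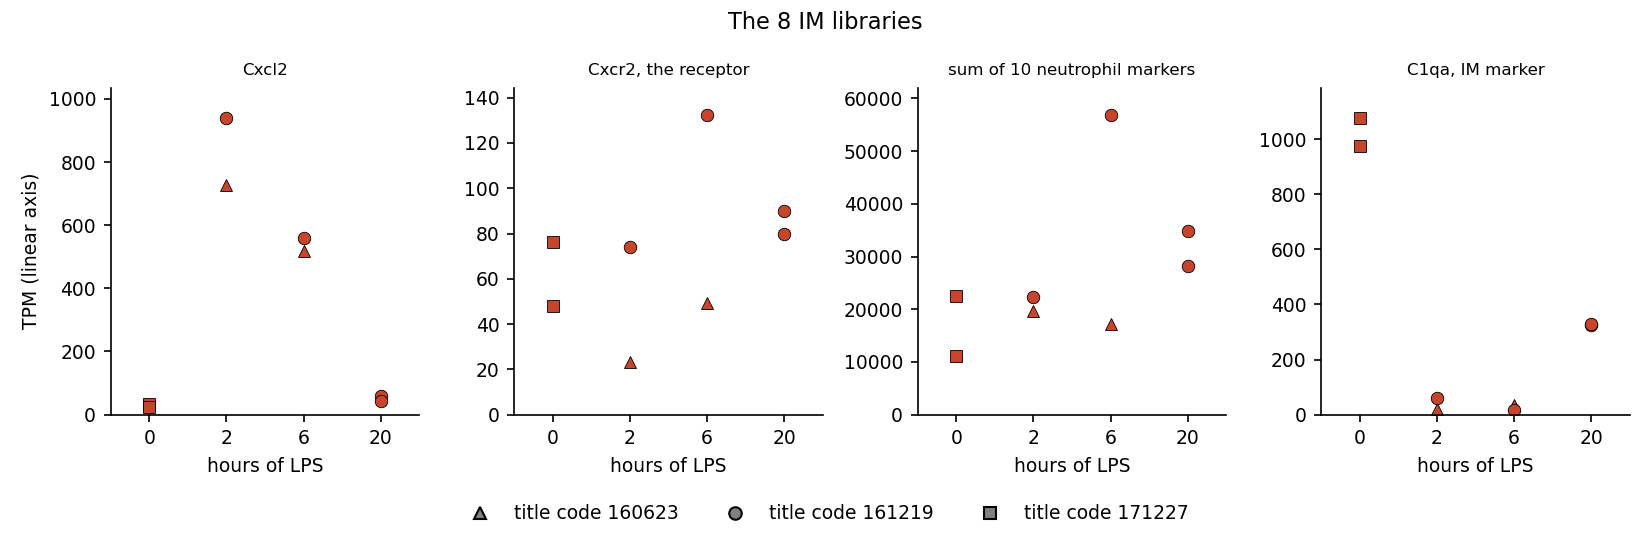
TPM in the 8 IM libraries on linear axes, by hours of LPS, for Cxcl2, its receptor Cxcr2, the sum of 10 neutrophil markers, and C1qa. Points are libraries. Cxcl2 is high at 2h and 6h only, the neutrophil sum is high at all times, and C1qa is highest at 0h.

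In iMo, Cxcl2 was the member called against 0h, at each of the 3 times. It was at 6.84 and 16.6 TPM at 2h, at 12.5 and 18.0 TPM at 6h, and at 5.91 and 15.9 TPM at 20h, all above the 0h values of 1.71 and 0.41 TPM. Even so, the highest iMo value was below the lowest IM value of 23.4 TPM. Against 0h, 1 of 3 members was higher at each time, beside 8.41%, 5.95% and 7.39% of all genes at 2h, 6h and 20h. The log2 differences of Cxcl2 were 2.59 (SE 0.61, adjusted p 0.00225 by limma), 3.04 (SE 0.61, 0.000726) and 2.47 (SE 0.61, 0.00555), with medians of all genes of -0.42, -0.48 and -0.31. With a pseudocount of 5 TPM they were 1.41, 1.74 and 1.33, and after adjusting for the title code 4.42, 4.87 and 4.30, all called. The adjustment for the code rests on the code-160623 AM library at 0h, whose Cxcl2 value of 5.33 TPM was the lowest of AM at 0h. In iMo at 2h, 752 of 2897 called genes were higher, and 1499 of 3030 with quantile normalization.

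The iMo call at 6h held with any 1 library left out. The call at 2h was lost without the 2h library B161219 (adjusted p 0.0650 by limma), and the call at 20h without the 0h library B171227 or the 20h library B161219. Neutrophil markers rose in the same libraries, 6, 7 and 8 of 10 at the 3 times beside 8.41%, 5.95% and 7.39% of all genes, with sums of 135 and 216 TPM at 0h, 336 and 673 TPM at 2h, 1753 and 3061 TPM at 6h, and 2901 and 2927 TPM at 20h (lower value first). Their part in the Cxcl2 values was not tested.

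Cxcl3 in iMo was at 4.37 and 4.31 TPM at 2h and at 0.83 TPM or less at 6h and 20h. Its difference at 2h was 1.81 (95% interval -0.17 to 3.79, adjusted p 0.153 by limma). It was called there with the title code as a covariate (5.22, adjusted p 0.0109) and with iMo fitted alone (1.81, 0.0198). The fit with the code rests on the code-160623 AM library at 0h, where Cxcl3 was at 2.22 TPM, the lowest of AM at 0h. Cxcl1 was listed at 0 in 7 of 8 iMo libraries and at 4.11 TPM in 1 library at 2h. Between consecutive times, 0 of 3 members were called in iMo, beside 8.12% of all genes for 6h against 2h and 4.03% for 20h against 6h, and 0 of 3 had an unadjusted p under 0.05 in either.

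In AM no member was called at any time. Cxcl2 was at 31.3 and 19.8 TPM at 2h, at 22.3, 27.9 and 36.2 TPM at 6h, and at 12.2 and 5.53 TPM at 20h, all within the range of the 4 libraries at 0h. Cxcl1 stayed between 0.63 and 3.42 TPM. Cxcl3 was at 8.10 and 12.01 TPM at 2h, at 3.55, 6.64 and 14.8 TPM at 6h, and at 4.99 and 5.01 TPM at 20h. These values lay below the 3 code-171227 libraries at 0h but above the code-160623 library. Within code-160623, AM Cxcl3 went from 2.22 TPM at 0h to 8.10, 3.55 and 4.99 TPM at 2h, 6h and 20h, with 1 library each and no test.

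Against 0h, 0 of 3 members were called in AM at 2h, 6h and 20h, beside 0.134%, 1.3% and 0.112% of all genes by limma. Members with an unadjusted p under 0.05 numbered 0, 0 and 1. The log2 differences of Cxcl2 were 0.73 (95% interval -0.35 to 1.81), 0.91 (-0.05 to 1.86) and -0.75 (-1.84 to 0.33), so a rise as large as that of IM at 2h lies outside the first of these intervals. Those of Cxcl3 were -0.90, -1.31 and -1.76 (-3.47 to -0.04 for the last). Between consecutive times, 0 of 3 were called, beside 0% for 6h against 2h, where 110 genes had an unadjusted p under 0.05, and 0.0336% for 20h against 6h. Cxcl2 at 20h against 6h was at -1.66 (95% interval -2.80 to -0.52, adjusted p 0.697).

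The difference between responses was tested in its own right. Over the 3 times together (limma's F test), the response of IM differed from that of AM for 3 of 3 members, beside 26.5% of all genes. The adjusted p was 0.0245 for Cxcl1, 0.00264 for Cxcl2 and 0.0153 for Cxcl3. At single times, 2 of 3 members responded more in IM than in AM at 2h, beside 4.95% of all genes in that direction, and 2 of 3 at 6h, beside 1.43%. Those were Cxcl2, by 4.11 at 2h (SE 0.80, adjusted p 0.00104) and 3.32 at 6h (SE 0.76, 0.00802), and Cxcl3, by 3.81 (SE 1.27, 0.0288) and 5.16 (SE 1.21, 0.00921). The Cxcl3 values include AM differences from 0h of -0.90 and -1.31, and AM libraries of code-171227 exist at 0h only. Within code-160623, AM Cxcl3 was at 2.22 TPM at 0h and at 8.10 and 3.55 TPM at 2h and 6h. Leaving out 1 library lost the Cxcl3 call at 2h for 6 of 10 libraries and at 6h for either IM library at 0h or the code-160623 IM library. The Cxcl2 call at 2h held with any 1 library left out, and that at 6h was lost without the IM library B171227 at 0h (adjusted p 0.0723). With a pseudocount of 0.1 TPM, 1 of 3 was called at 2h and 0 of 3 at 6h, and with no filter 1 of 3 at 2h. Cxcl1 was called at 2h with a pseudocount of 5 TPM, quantile normalization, the title code, or without the code-160623 AM library at 0h or at 2h (1.44 to 3.34), and at 6h with quantile normalization or without the IM library A161219 (2.97 and 3.44). At 20h, 0 of 3 were called, beside 4.3%, and 0 of 3 had an unadjusted p under 0.05.

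The response of iMo differed from that of AM over the 3 times for 1 of 3 members, beside 17.3% of all genes by limma's F test. It was Cxcl2, with an adjusted p of 0.0303. At single times this was called at 20h, for 1 of 3 members beside 2.27% in that direction, with a difference of 3.22 (SE 0.80, adjusted p 0.0212). That call was lost without the AM library A161219 at 20h, the iMo library B171227 at 0h or the iMo library B161219 at 20h, with a pseudocount of 5 TPM or with no filter. At 2h and 6h 0 of 3 were called, beside 14.6% and 7.87%, and 2 and 1 of 3 had an unadjusted p under 0.05. Apart from the replicate block, given at the end, Cxcl2 was called at 6h under 5 other settings, with differences of 2.33 to 3.01. These were a pseudocount of 0.1 TPM, rescaling, the title code, array weights, and leaving out the code-160623 AM library at 0h. Cxcl2 was called at 2h under 3 of these (rescaling, title code and without that library), with 2.29 to 2.60. Cxcl3 was called there under 2 (title code and without that library), with 3.53 and 3.596. The response of iMo differed from that of IM for 1 of 3 members, beside 3.75%, again Cxcl2 (adjusted p 0.0310 by the F test). No single time was called for that pair, with 0 of 3 members beside 3.7%, 4.33% and 3.78% of all genes at 2h, 6h and 20h, and 1, 2 and 0 of 3 with an unadjusted p under 0.05. Cxcl2 was called at 2h and 6h with a pseudocount of 5 TPM (-3.25 and -2.31). Cxcl3 was called at 6h with quantile normalization, the title code, array weights, or without the IM library A161219 at 6h, with differences of -4.02 to -5.72. Cxcl1 was called at 6h without that IM library (-3.42).

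Under LPS, IM stood above AM for Cxcl2 at every time. At 2h, 2 of 3 members were higher in IM, beside 12.7% of all genes: Cxcl2 by 5.00 on the log2 scale (SE 0.61, adjusted p 5.4e-07 by limma) and Cxcl1 by 2.60 (SE 0.69, 0.00287). At 6h, 3 of 3 were higher, beside 12%: Cxcl2 by 4.20, Cxcl3 by 2.54 and Cxcl1 by 2.41. At 20h, 1 of 3 was higher, beside 11.5%: Cxcl2 by 2.47 (SE 0.61, adjusted p 0.00434), a call lost without the A161219 library of either cell type. The Cxcl1 call was lost without the AM library B161219 at 2h and without the code-160623 IM library at 6h. The Cxcl3 call at 6h was lost without that IM library or either of 2 AM libraries (code-160623 and A161219), with a pseudocount of 0.1 TPM, with no filter, or after rescaling without Rn45s and Lars2 (adjusted p 0.0527 to 0.588 by limma). In the libraries of code-161219 alone, Cxcl2 differed by 5.50, 4.09 and 2.98 at the 3 times. There Cxcl1 differed by 0.95 and Cxcl3 by 0.41 at 6h, against 2.41 and 2.54 in all libraries, and Cxcl3 by 1.89 at 2h. With this code alone, AM at 2h and 20h and IM at 2h and 6h had 1 library each, so only the differences are given.

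Against IM, iMo had 2 of 3 members lower at 2h (beside 1.57% of all genes), 3 of 3 lower at 6h (2.29%) and 0 of 3 called at 20h (1.25% in either direction). The Cxcl2 differences were -6.14 (SE 0.61, adjusted p 4.95e-07 by limma), -5.07 (SE 0.61, 1.45e-05) and -2.25 (SE 0.61, 0.0732). The Cxcl1 call at 2h was lost without either IM library or the iMo library A161219, with no filter or with array weights, and the Cxcl3 call at 6h without the code-160623 IM library or the iMo library B161219. In the libraries of code-161219 alone, the 2h differences were -2.58 for Cxcl1 and -3.17 for Cxcl3, against -2.79 and -2.21 in all libraries. IM at 2h was the library A161219 only in that fit. At 20h 1 of 3 members had an unadjusted p under 0.05. Against AM, iMo had 0 of 3 members called at 2h (39.9% of all genes in either direction), 1 of 3 lower at 6h (18.6% lower) and 0 of 3 at 20h (16.9%). Members with an unadjusted p under 0.05 numbered 0 at 2h and 1 at 20h. The gene called at 6h was Cxcl3, at -2.60 (SE 0.88, adjusted p 0.0276), and that call was lost without 4 of the 5 libraries in turn (all but the code-160623 AM library), with a pseudocount of 5 TPM, or with no filter.

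Ranked over the 12 groups by mean TPM, Cxcl2 began with IM at 2h, 6h and 20h, and the libraries of these 3 groups did not overlap those of the next. From AM at 6h (28.8 TPM) down to AM at 20h (8.84 TPM), neighbouring groups overlapped. iMo at 0h was last, at 1.06 TPM, below every other library. Cxcl1 began with IM at 6h (22.8 TPM) and 2h (14.8 TPM), which overlapped each other and no other group, and ended with iMo at 0h, 6h and 20h, all listed at 0. Cxcl3 began with IM at 6h (83.6 TPM), IM at 2h (29.4 TPM) and AM at 0h (28.0 TPM), and each of these overlapped the next.

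TPM allows the members to be compared with each other within a library. Cxcl2 made up 72.8% to 96.7% of the summed TPM of the 3 genes in the 8 IM libraries. The lowest of these shares was that of the code-160623 library at 6h, where Cxcl3 made up 21.6%. In AM at 0h Cxcl2 made up 21.1% to 62.9% of the sum and Cxcl3 26.2% to 74.9%. Cxcl3 exceeded Cxcl2 in 2 of the 4 AM libraries at 0h and in 0 of the 7 AM libraries after LPS, where its share was 12.98% to 44.6%.

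The receptors followed a different pattern. Cxcr2, the receptor for all 3 chemokines, was at 76.3 and 47.8 TPM in IM at 0h, at 23.1 and 74.1 TPM at 2h, at 49.5 and 132 TPM at 6h, and at 80.0 and 89.8 TPM at 20h. Its groups overlapped between 0h, 2h and 6h, and no time was called against 0h (adjusted p 0.328, 0.502 and 0.542 by limma). It was at 2.29 TPM or less in every AM library. In iMo it rose from 0.60 and 0.29 TPM at 0h to 2.78 and 2.00 TPM at 6h (log2 difference 1.23, adjusted p 0.0392) and 5.09 and 5.41 TPM at 20h (2.12, 0.00162). Cxcr1, which binds fewer of these ligands, was at 1.91 to 8.21 TPM in AM and fell in IM from 3.40 and 2.09 TPM at 0h to 0.58 and 0.28 TPM at 2h (-1.37, adjusted p 0.0204). Ackr1, a scavenger of chemokines on erythroid and venular endothelial cells, was at 2.19 TPM or less in all 27 libraries and was not tested.

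The other ELR+ chemokines of the cluster stayed low, and 0 of 3 passed the filter. Cxcl5, best known from epithelial cells, was at 0.89 TPM or less in every library. Cxcl15 (lungkine), made by lung epithelium, was at 10.8 and 3.87 TPM in IM at 0h and at 1.41 TPM or less elsewhere. Ppbp, a platelet chemokine, was at 3.53 and 6.53 TPM in IM at 0h and at 2.85 TPM or less elsewhere.

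Among cytokines that mobilise neutrophils, 6 of 7 tested rose in IM at 2h and 5 of 7 at 6h, beside 7.99% and 4.63% of all genes, with median log2 differences of 3.63 and 2.44 by limma against -0.79 and -0.53 over all genes. Il1a, an alarmin of the interleukin-1 family, rose from 0.39 and 1.79 TPM to 58.3 and 118 TPM at 2h (log2 difference 5.42, adjusted p 5.58e-07). Tnf, the early macrophage cytokine, rose from 2.77 and 6.05 TPM to 113 and 126 TPM (4.54, 2.13e-07). Il6, which drives the acute phase response, rose from 0.00 and 1.03 TPM to 15.98 and 26.4 TPM (3.92, 3.58e-07). From 6h to 20h, 3 of 7 fell, beside 1.12% of all genes: Il1a by 2.90, Csf3 by 1.76 and Il6 by 1.74. Csf3 encodes G-CSF, which releases neutrophils from bone marrow. In AM, 0 of 7 were called at each time against 0h, beside 0.134%, 1.3% and 0.112% of all genes, and in iMo 6, 3 and 4 of 7 rose at 2h, 6h and 20h, beside 8.41%, 5.95% and 7.39%.

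Of 13 NF-kB subunits and feedback inhibitors, 10 rose in IM at 2h, 6 at 6h and 3 at 20h, beside 7.99%, 4.63% and 4.05% of all genes. Tnfaip3 (A20), a ubiquitin-editing inhibitor of the pathway, went from 3.96 and 6.64 TPM to 293 and 456 TPM at 2h (log2 difference 5.89, adjusted p 4.53e-09 by limma). Nfkbia, the inhibitor IkB-alpha, went from 137 and 168 TPM to 1490 and 2337 TPM (3.61, 6.57e-05), and Tnip1, a partner of A20, from 20.2 and 20.7 TPM to 198 and 240 TPM (3.35, 1.69e-06). In iMo 9 of 13 rose at 2h, beside 8.41% of all genes, and Tnfaip3 reached 182 and 273 TPM there, where Cxcl2 was at 6.84 and 16.6 TPM. In AM 0 of 13 were called at each time against 0h, beside the same 0.134%, 1.3% and 0.112%. Tnfaip3 was also called from 6h to 20h in IM, where it fell by 1.88 (adjusted p 0.0210).

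Of 8 genes of the LPS receptor complex, 4 rose in IM at 2h and 1 at 6h, beside 7.99% and 4.63% of all genes. Cd14, the coreceptor that hands LPS to TLR4, rose from 114 and 82.4 TPM to 836 and 1399 TPM at 2h (log2 difference 3.47, adjusted p 6.8e-06 by limma). The adaptor genes Ticam1 and Myd88 rose by 1.22 (0.00726) and 1.14 (0.0337). Of 7 tested decay and stability factors, 3 rose and 2 fell in IM at 2h, beside 7.99% and 40.8% of all genes. Zc3h12a (Regnase-1), a nuclease that cuts cytokine messages, rose by 2.75 (adjusted p 3.57e-06), whereas Zfp36l2 and Zfp36l1, relatives of tristetraprolin, fell by 3.65 (0.000416) and 1.77 (0.00187). In AM, 0 of 8 and 0 of 7 of these lists were called at each time against 0h, beside 0.134%, 1.3% and 0.112% of all genes.

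Other chemokines were set beside the members. Of 12 tested CC chemokines, 4 rose and 3 fell in IM at 2h, beside 7.99% and 40.8% of all genes. Ccl3 (MIP-1-alpha) rose from 9.69 and 11.2 TPM to 1393 and 2145 TPM (log2 difference 7.24, adjusted p 7.54e-09 by limma), Ccl4 (MIP-1-beta) rose by 6.59 and Ccl8 fell by 6.22. Of 7 tested CXC chemokines without the ELR motif, 3 rose and 3 fell, beside the same shares. Cxcl10, an interferon-induced ligand of CXCR3, rose from 6.95 and 68.0 TPM to 4274 and 11052 TPM (8.20, 4.06e-06), Cxcl11 rose by 6.32 and Pf4 fell by 5.91. Within single lists with no call, the largest AM differences at 6h were 2.39 for Cxcl10 (adjusted p 0.238 by limma) and 1.20 for Nfkbia (0.326). Those of other such lists in AM were 0.89 for the stabilising factor Arid5a (0.104), -0.62 for Il1a (0.703) and -0.43 for Cd14 (0.748). There 2 of 12 CC chemokines rose at 6h, beside 0.929% of all genes, Ccl5 by 4.27 (adjusted p 0.000503) and Ccl2 by 2.76 (0.000813). In iMo, Ccl3 reached 304 and 509 TPM at 2h and Cxcl10 3861 and 8795 TPM.

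**Figure D4:**
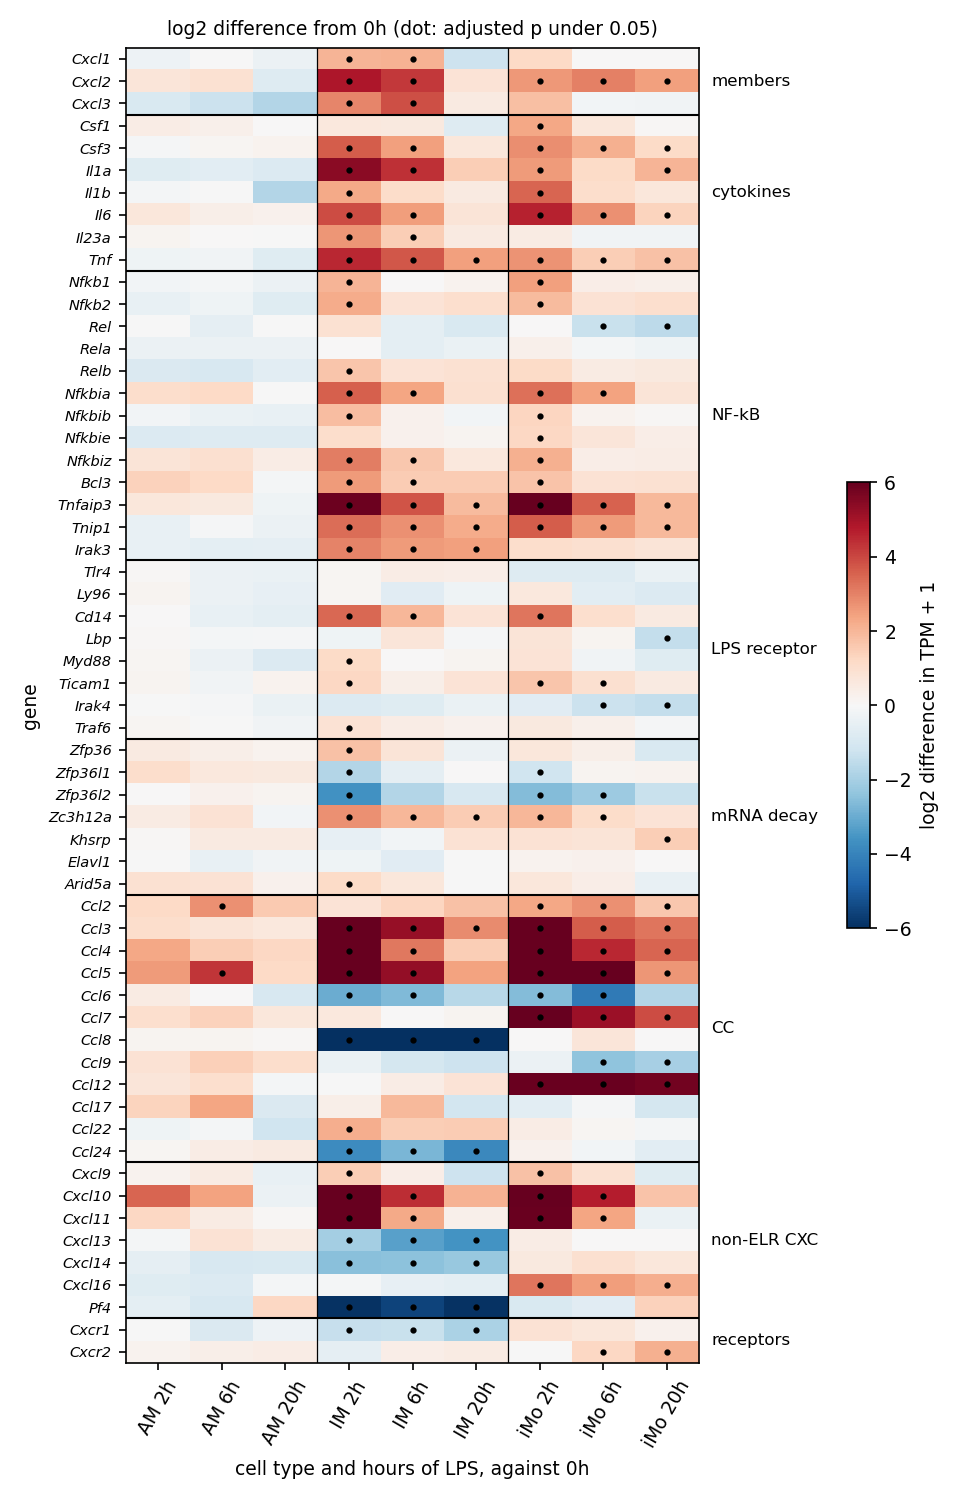
Log2 difference from 0h for the 3 members and the tested genes of the related lists (59 genes in all) in each cell type and time, from limma. Red is higher and blue lower than 0h, colours stop at 6 in either direction, and dots mark an adjusted p under 0.05. The AM columns hold dots for Ccl2 and Ccl5 at 6h only.

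The genes whose pattern was most like that of each member were found by Pearson's r over the 12 group means of log2(TPM + 1), among 6346 genes with a mean of at least 10 TPM in their highest group. No test was made, and the groups share their libraries. For Cxcl1 they were Rab11fip1 (0.884), Cxcl3 (0.883), Cxcl2 (0.877), Hcar2 (0.861) and Irak2 (0.847). For Cxcl2 they were Trem1 (0.924), Slc7a11 (0.906), Klf7 (0.905), Snai1 (0.888) and Stfa1 (0.885). For Cxcl3 they were Rab11fip1 (0.891), Il1a (0.889), Cxcl1 (0.883), Hcar2 (0.880) and Ccl22 (0.862). These lists depend on the measure: ranked over the 27 libraries, 3, 2 and 3 of the 5 genes recurred for Cxcl1, Cxcl2 and Cxcl3, and by Spearman over the groups 3, 3 and 2. Rab11fip1 was not among the 5 over the 27 libraries for Cxcl1 or Cxcl3.

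Trem1, a receptor on neutrophils and monocytes that amplifies inflammatory signals, had group means of 9.81 TPM in IM at 0h, 84.6 TPM at 2h, 75.2 TPM at 6h and 30.9 TPM at 20h. Slc7a11, the cystine transporter, went from 1.45 TPM to 25.5, 17.1 and 3.65 TPM in the same groups. Hcar2, the niacin receptor, went from 13.6 TPM to 106, 51.9 and 12.5 TPM. Stfa1, a stefin found in neutrophils, went from 3.26 TPM to 7.28, 12.6 and 2.53 TPM and was listed at 0 in every iMo group.

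Across single libraries the members tracked each other in IM and less so elsewhere. In the 8 IM libraries Pearson's r was 0.79 for Cxcl1 and Cxcl2, 0.86 for Cxcl1 and Cxcl3, and 0.81 for Cxcl2 and Cxcl3. In the 11 AM libraries these values were 0.63, 0.37 and 0.41, and in the 8 iMo libraries 0.34, 0.58 and 0.13. They are descriptions over libraries that share time points and codes, with many iMo values at 0.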

How the data were processed

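Smart-seq2 libraries were made from small numbers of sorted cells, per the labels' protocols. STAR, HOMER and mm10 are named in the submitters' processing notes, without roles. The authors deposited one table of TPM values per gene and library. No columns were duplicates, and 0 columns lacked a library. A gene was kept where 2 or more of the 27 libraries reached 5 TPM, which left 8937. Their log2(TPM + 1) values were fitted with limma 3.58.1 (R 4.3.3) over 12 groups with a trended prior variance and 15 residual degrees of freedom, and the fit was tested on simulated data. Calls used a Benjamini-Hochberg adjusted p under 0.05.

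The members, gene lists and tests were chosen with earlier results of these data known. Named genes are the members, the 5 most similar genes of each, up to 3 called genes of largest difference per list and comparison, and 6 related chemokines and receptors by level. Alternatives were other pseudocounts, no filter, quantile normalization, rescaling without Rn45s and Lars2, the title code as covariate, a replicate block, array weights, no trend, single cell types, single codes (chosen after seeing the data) and leaving out each library. Promoters and loci come from RefSeq (GRCm38.p6), exons and transcripts from GENCODE, matched by symbol (3 of 3).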

Additional observations from a re-analysis of the deposited data

Results flagged for a closer look

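Cxcl3 was at 2.219 TPM in the AM library at 0h of code-160623, against 32.8 to 39.4 TPM in the other 3. On the log2 scale the gap to the nearest of the others was 0.93 of the whole range, above the 95% critical value of Dixon's test for 4 libraries, which chance passes in about 1 in 20 groups.

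The responses differed between cell types by limma. Over the 3 times, IM differed from AM for Cxcl1 (adjusted p 0.02449), Cxcl2 (0.002637) and Cxcl3 (0.01525), iMo from AM for Cxcl2 (0.03027), and iMo from IM for Cxcl2 (0.03101). At single times, the response of IM exceeded that of AM by 4.11 for Cxcl2 and 3.81 for Cxcl3 at 2h and by 3.32 and 5.16 at 6h. The response of iMo exceeded that of AM by 3.22 for Cxcl2 at 20h, where the levels differed by 0.22 (adjusted p 0.854 by limma). Each of these calls at single times, except that of Cxcl2 at 2h, was lost with some single library left out.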

How the results depend on the processing

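No value changed sign where it was called. Counts are members called of 3. Changes between 2 and 3 members are not listed in this paragraph, and the genes they concern are named above. A pseudocount of 0.1 TPM gave 1 for IM at 2h, 0 for IM against AM before LPS, 2 for iMo against IM before LPS, and 2 for iMo against AM at both 6h and 20h, and one of 5 TPM gave 0 for iMo against AM at 6h and 1 for iMo against IM at 20h. No filter gave 1 for iMo against IM at 2h and 0 for iMo against AM at 6h. Rescaling without Rn45s and Lars2 gave 2 and 1 for iMo against AM at 6h and 20h. The title code as a covariate gave 2 for iMo at 2h and for iMo against IM at 0h, and 1 for iMo against AM and against IM at 20h. That fit ties IM and iMo after LPS to 0h through the code-160623 AM library at 0h alone. Array weights gave 1 for AM at 6h, 2 for iMo against IM at 0h, 1 at 2h and 1 at 20h, and 2 and 1 for iMo against AM at 6h and 20h. Each cell type alone gave 2 for iMo at 2h and 1 for iMo at 6h against 2h. Libraries of code-161219 alone gave 1 for iMo at 6h against 2h, and 2 for iMo against AM at 6h and against IM at 20h. Comparisons with an arm of 1 library are left aside there. Those of code-171227 alone gave 2 for iMo against IM at 0h.

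Leaving out 1 library gave 0 to 1 for IM against AM at 0h, 1 to 2 at 2h, 1 to 3 at 6h and 0 to 1 at 20h. It gave 0 to 1 for iMo against AM at 6h, 1 to 2 for iMo against IM at 2h, 1 to 2 for IM at 2h and 1 to 3 at 6h, 0 to 3 for IM at 20h against 6h, 0 to 2 for iMo at 2h, and 0 to 1 for iMo at 20h and at 6h against 2h. For iMo against AM at 0h and iMo against IM at 6h it gave 2 to 3. With an arm of 1 library, that library is assumed to vary like the others.

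With the replicate block of letter and code, 1 member was called for iMo against AM and 1 for iMo against IM at 20h, where 0 were. It lost Cxcl1 for IM at 6h against 0h (4.17, adjusted p 0.0686 by limma), leaving 2 of 3. Of the differences between responses it called Cxcl1 for IM against AM at 2h (0.0380), Cxcl2 for iMo against AM at 2h (0.0232) and 6h (0.0175), and, for iMo against IM, Cxcl2 at 2h (0.0358) and Cxcl3 at 6h (0.0304). What else libraries of one name share is not stated. Of the 25 libraries with a same-named library, 16 correlated best with one of the same name. Pairs of the name without a letter had correlations of 0.061 to 0.618, and the single pair of name B171227 had 0.308. Those of names A161219, B161219 and A171227 ran from -0.21 to 0.47, -0.187 to 0.5 and -0.056 to 0.308. TPM keeps no depth, so what limits low values such as Cxcl1 in iMo is unknown. The causes were not tested.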
